A study of Mus musculus with 89 samples.

Results

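The genes described here are the core of the machinery that takes a cell from G1 into S phase: the D cyclins Ccnd1, Ccnd2 and Ccnd3, the cyclin-dependent kinases (CDKs) Cdk4 and Cdk6, the CDK inhibitors Cdkn1a, Cdkn1b, Cdkn1c and Cdkn2c, and the retinoblastoma gene Rb1. They were picked by name, with earlier results of these data known. They are 10 of the 24411 genes in the deposited tables, and 16302 of these genes were detected in any cell. In G1 a D cyclin binds CDK4 or CDK6, and the active kinase phosphorylates the retinoblastoma protein, which then lets go of E2F transcription factors so that genes of DNA replication can be transcribed. The Cip/Kip inhibitors p21 (Cdkn1a), p27 (Cdkn1b) and p57 (Cdkn1c) bind cyclin-CDK complexes, whereas the INK4 inhibitor p18 (Cdkn2c) binds CDK4 and CDK6 themselves. In the dentate gyrus, where neural stem cells make granule neurons throughout life, cyclin D2 is known from mouse mutants to be needed for adult neurogenesis, and p27 and p57 are known to hold back division of stem and progenitor cells.

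The study sequenced single neural stem cells and their immediate progeny from mice of 4.5 and of 2 months. All mice were homozygous Nestin:CFPnuc animals (B6.Cg-Tg(Nes-CFP)1Enik/J, labelled C57BL/6) with a nuclear fluorescent protein under Nestin control, a readout of Nestin promoter activity, and there was neither a second genotype nor a treatment. The gate of the sort is not given in the sources used here. Each cell was sorted from dissociated dentate gyrus, its cDNA was amplified with a full-length kit (SMART-Seq v4) and its library was made with Nextera XT. A deposited table gives each of the 89 cells a class and a colour; the basis of neither is given in the sources used here, and classes drawn from expression would make differences between them partly built in.

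The IPC class, read here as intermediate progenitor cells, held 11 cells, 6 of them at 4.5 months and 5 at 2 months. The aNSC class, read as activated neural stem cells, was split at 10 counts of Pdgfra, the receptor gene that marks oligodendrocyte precursors. This gave 7 Pdgfra-positive cells (3 at 4.5 months, 4 at 2 months) and 11 Pdgfra-negative cells (4 at 4.5 months, 7 at 2 months). The qNSC class, read as quiescent neural stem cells, held 60 cells (28 at 4.5 months, 32 at 2 months), of which 9 were coded blue (5 and 4), 26 red (13 and 13) and 25 green (10 and 15). Animals were not named for any cell, so each group counts as 1 sample: the differences below are sizes in these cells, with no test, and the SD is the spread between cells. Cells are numbered within an age only to name them.

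Total counts per cell ran between 234608 and 1896075 (median 912394), and the genes detected in a cell numbered 2155 to 6043. Cells of the Pdgfra-positive group had a median of 4994 genes, against 4642 in IPC, 4143 in Pdgfra-negative aNSC and 3713 in qNSC cells, so that depth in genes moved with class. Markers were counted as present in a cell at 10 or more counts. At least 50% of 8 oligodendrocyte precursor markers were present in 7 of 7 Pdgfra-positive cells and in no other cell (Pdgfra, which made the split, is 1 of the 8). This goes against the stem cell label of that group, and it is called by its split throughout. At least 50% of 7 intermediate progenitor markers were present in 8 of 11 IPC cells and in no cell of another group. The stem cell markers reached 50% in 8 of 11 IPC, 5 of 7 Pdgfra-positive, 11 of 11 Pdgfra-negative and 58 of 60 qNSC cells, while 8 astrocyte markers, many of them shared with stem cells, reached it in 5 of 11 Pdgfra-negative and 55 of 60 qNSC cells. Markers of another cell type reached 50% in 10 cells, 8 of them qNSC.

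Values are given on these scales. TPM, the length-scaled abundance the authors deposited, serves to compare genes with each other. CPM is a gene's counts scaled to a total of 1000000 in a cell or, summed, in a group, and means and SDs are of log2(CPM + 1). A gene was called higher or lower in a comparison when 20% or more of the cells in one or other group had a read and the gene passed 3 limits in 1 direction, namely a ratio of 2 in summed CPM, 15 percentage points between the shares of cells with a read, and a difference of 1 between the means of log2(CPM + 1). Intervals of shares are exact Clopper-Pearson and those of ratios exact conditional binomial, both at 95%. They cover counting error only. Those of ratios take each read as a separate draw, although several reads here can stem from a single molecule, so they can be too narrow.

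The kit does not record strand, and reads over exons that overlap a gene on the other strand cannot be told apart. On GRCm38 (GENCODE M21) this touches Ccnd1 (chromosome 7, 144929931 to 144939925, minus strand), of whose 50-base words 27.2% also occur in its neighbour Oraov1, Ccnd3 (chromosome 17, 47505051 to 47599691, plus strand; 21.7%, Bysl and a Ccnd3 pseudogene) and Cdk4 (chromosome 10, 127063534 to 127067920, plus strand; 29.5%, mostly Tspan31). It also touches Cdkn1c (chromosome 7, 143458339 to 143461050, minus strand; 26.6%) and Cdkn1a (chromosome 17, 29090976 to 29100727, plus strand; 10.5%). The shares were 5.17% for Ccnd2 (chromosome 6, 127125162 to 127152193, minus strand), 1.66% for Cdk6 (chromosome 5, 3341485 to 3531008, plus strand) and 1.26% for Rb1 (chromosome 14, 73183673 to 73325822, minus strand). Cdkn1b (chromosome 6, 134920401 to 134925513, plus strand) and Cdkn2c (chromosome 4, 109660876 to 109667189, minus strand) shared none. Among the D cyclins the longest identical run was 20 bases, and Cdk4 and Cdk6 also shared at most 20, so reads of these family members are separable by length.

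Ccnd2 was the most abundant D cyclin in IPC cells. In IPC cells its abundance had a lowest value of 0, a median of 696 and a highest value of 1146 TPM. Pdgfra-positive aNSC cells ran from 0 to 20.2 TPM with a median of 0, and Pdgfra-negative aNSC cells from 0 to 491 TPM with a median of 33.8. In qNSC cells the range was 0 to 175 TPM with a median of 8.03. Apart from 1 IPC cell (2 months, number 5) with no Ccnd2 read, the IPC cells all lay at 268 TPM or more, above every qNSC cell, while the Pdgfra-negative cells overlapped both. The share of all genes that separate IPC from qNSC cells in this way is not given here. Ccnd2 had 10 or more counts in 10 of 11 IPC, 2 of 7 Pdgfra-positive, 10 of 11 Pdgfra-negative and 31 of 60 qNSC cells.

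Ccnd1, a cyclin that growth factor signalling induces, was sparse outside the Pdgfra-positive cells. It was read in 3 of 11 IPC cells (0 to 107 TPM), 5 of 7 Pdgfra-positive cells (0 to 306 TPM, median 7.60), 3 of 11 Pdgfra-negative cells (0 to 33.6 TPM) and 6 of 60 qNSC cells (0 to 60.6 TPM). A single Pdgfra-positive cell (4.5 months, number 36) held the 306 TPM, and the next highest in that group had 88.4 TPM. No cell had 10 or more counts of both Ccnd1 and its overlapping neighbour Oraov1, and Oraov1 was listed at 0 in all Pdgfra-positive cells.

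Ccnd3, the third D cyclin, was spread over all classes. It was read in 7 of 11 IPC cells (0 to 209 TPM, median 82.1), 7 of 7 Pdgfra-positive cells (1.39 to 313 TPM, median 174), 5 of 11 Pdgfra-negative cells (0 to 425 TPM, median 0) and 28 of 60 qNSC cells (0 to 368 TPM, median 0). All 4 ranges overlapped. Its neighbour Bysl had 10 or more counts in 3 of 11 IPC, 1 of 7 Pdgfra-positive, 3 of 11 Pdgfra-negative and 7 of 60 qNSC cells, and 18 of the 22 qNSC cells with 10 or more counts of Ccnd3 had no read of Bysl.

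**Figure D1:**
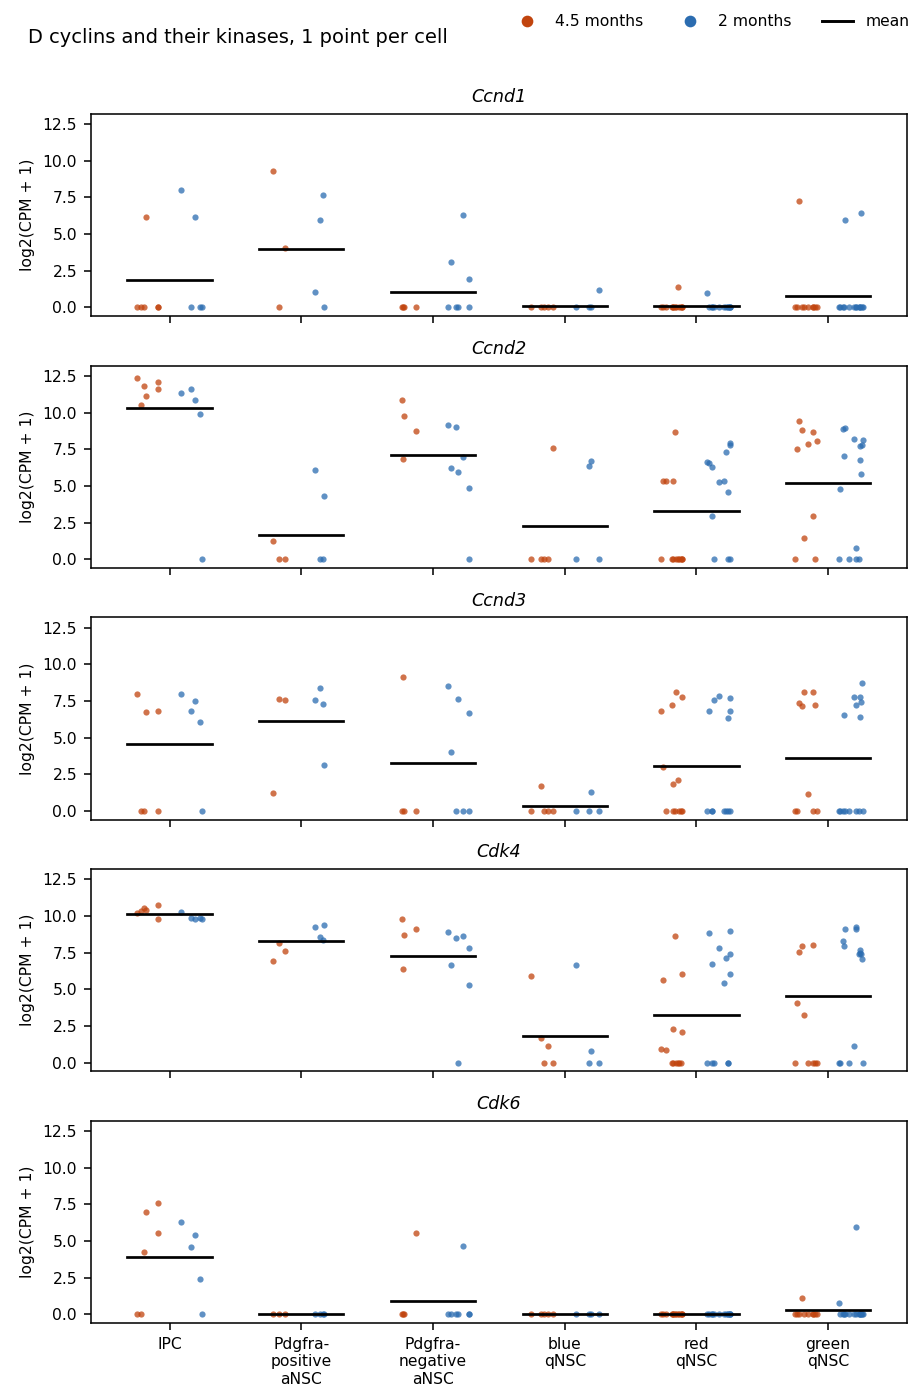
Level of the D cyclins and their kinases in each cell, as log2(CPM + 1) on the vertical axis, by group of cells on the horizontal axis; points are cells coloured by age (4.5 and 2 months) and lines are group means. Ccnd2 and Cdk4 lie highest in the 11 IPC cells, Ccnd1 is spread over the 7 Pdgfra-positive cells, and Cdk6 is at 0 in every Pdgfra-positive, blue and red cell.

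The make-up of the D cyclins differed accordingly. Summed over the 3 genes, mean abundance was 746 TPM in IPC, 208 TPM in Pdgfra-positive aNSC, 210.3 TPM in Pdgfra-negative aNSC and 87.7 TPM in qNSC cells. Ccnd2 made up 87.4% of this in IPC cells, 1.75% in Pdgfra-positive cells, 55.2% in Pdgfra-negative cells and 32.2% in qNSC cells. Ccnd3 made up 10.6%, 68.7%, 43.1% and 65.5% in the same groups, and Ccnd1 passed 5% only in the Pdgfra-positive cells, at 29.5%. That Ccnd1 share was 10.8% without the 4.5-month Pdgfra-positive cell numbered 36. By age it was 45.8% at 4.5 months and 15.1% at 2 months. The lead of Ccnd2 in Pdgfra-negative cells rested on 1 cell (4.5 months, number 21): without it Ccnd3 made up 54.7% and Ccnd2 43.2% of 182 TPM, while without any single cell Ccnd2 led in IPC and Ccnd3 in Pdgfra-positive cells. The 2 ages also differed, with 228 TPM in Pdgfra-positive and 332 TPM in Pdgfra-negative cells at 4.5 months, and 193 and 141 TPM at 2 months. Ccnd2 made up 68% of the total in Pdgfra-negative cells at 4.5 months and 38% at 2 months, when Ccnd3 led with 58%. Cell by cell, Ccnd2 was the most abundant D cyclin in 10 of 11 IPC cells and 6 of 11 Pdgfra-negative cells, and Ccnd3 in 6 of 7 Pdgfra-positive cells. Among the qNSC cells 23 were led by Ccnd2, 23 by Ccnd3 and 1 by Ccnd1, and 13 had no D cyclin read.

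**Figure D2:**
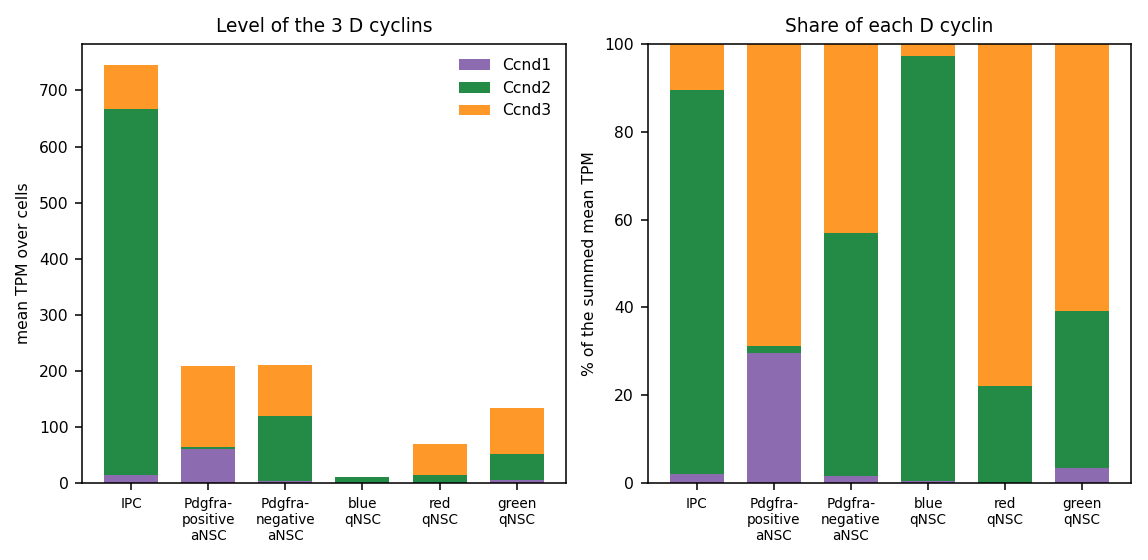
Mean TPM of Ccnd1, Ccnd2 and Ccnd3 stacked for each group of cells (left) and the share of each in their sum, in % (right). The total is 746 TPM in IPC, close to 210 TPM in both aNSC groups and 11.5 TPM in blue qNSC cells. Ccnd1 takes 29.5% in Pdgfra-positive cells, and 10.8% without the 4.5-month cell numbered 36.

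Cdk4, a catalytic partner of the D cyclins, had the highest mean TPM of the 10 genes in IPC, both aNSC groups and qNSC cells. In IPC cells it ran from 980 to 2401 TPM with a median of 1365. Pdgfra-positive cells ran from 191 to 907 TPM with a median of 443, and Pdgfra-negative cells from 0 to 1192 TPM with a median of 483. In qNSC cells the range was 0 to 814 TPM with a median of 3.43, and 36 of the 60 had a read. By median TPM, Ccnd2 lay above Cdk4 in qNSC cells. Every IPC cell lay above every Pdgfra-positive and every qNSC cell, whereas 1 Pdgfra-negative cell (4.5 months, number 21, 1192 TPM) reached into the IPC range. How many of all genes separate these groups as fully is not given here. The spread between IPC cells was small, with a mean log2(CPM + 1) of 10.14 ± 0.35 (SD, n = 11 cells), against 8.32 ± 0.88 (n = 7), 7.25 ± 2.76 (n = 11) and 3.56 ± 3.64 (n = 60) in the Pdgfra-positive, Pdgfra-negative and qNSC cells. Tspan31, which shares exons with Cdk4, had means of 332, 479, 321 and 411 TPM in IPC, Pdgfra-positive, Pdgfra-negative and qNSC cells. Both genes had 10 or more counts in 11 of 11 IPC, 7 of 7 Pdgfra-positive, 9 of 11 Pdgfra-negative and 25 of 60 qNSC cells. The part of Tspan31 in the Cdk4 values was not tested.

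The promoters of the kinase genes Cdk4 and Cdk6 are shown. Both genes stood highest in IPC cells, as did Ccnd2 and Cdkn2c. The E-box CACGTG (the same on both strands) is bound by the proteins of Myc and Mycn, which are among the genes described below. Control of Cdk4 or Cdk6 by Myc or Mycn was not tested. The sequences are RefSeq's on GRCm38.p6 and hold the 250 bases before the start of transcription, with each E-box in capitals.
Cdk4 (chr10:127063285-127063534, plus strand): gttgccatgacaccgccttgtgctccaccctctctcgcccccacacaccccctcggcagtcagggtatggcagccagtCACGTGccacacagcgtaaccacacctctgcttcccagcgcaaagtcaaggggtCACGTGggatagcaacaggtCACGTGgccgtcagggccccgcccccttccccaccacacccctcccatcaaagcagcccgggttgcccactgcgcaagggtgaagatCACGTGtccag
Cdk6 (chr5:3343643-3343892, plus strand): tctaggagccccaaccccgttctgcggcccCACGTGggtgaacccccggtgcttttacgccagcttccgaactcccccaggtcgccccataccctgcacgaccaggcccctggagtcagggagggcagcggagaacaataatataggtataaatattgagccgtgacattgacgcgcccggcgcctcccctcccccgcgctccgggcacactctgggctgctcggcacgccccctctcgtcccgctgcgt
The Cdk4 window holds 4 E-boxes, whose first bases lie 172, 118, 98 and 11 bases before the start, and the Cdk6 window holds 1, at 220 bases. The Cdk6 window lies inside the GENCODE gene, which begins at 3341485, so the 2 annotations place its start differently. Of 32851 promoter windows of this length 1978 (6.02%) hold an E-box and 7 (0.0213%) hold 4 or more. Promoter entries were found for 6 of the 10 genes (Ccnd3, Cdk4, Cdk6, Cdkn1a, Cdkn1b and Cdkn2c, with 9 windows between them) and not for Ccnd1, Ccnd2, Cdkn1c and Rb1. An E-box is in 2 of the 9 windows, those of Cdk4 and Cdk6, and in neither window of Cdkn2c. The E2F motifs TTTCGCGC, TTTGGCGC and TTTCCCGC, searched on both strands, occur in 1.53% of all windows and in 0 of these 9.

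Cdk6, the second kinase, was read in 8 of 11 IPC cells (0 to 136 TPM, median 13.1), 0 of 7 Pdgfra-positive cells, 2 of 11 Pdgfra-negative cells (34.2 and 15.8 TPM) and 3 of 60 qNSC cells. The 0 of 7 allows a share of up to 41.0% of such cells. All 3 qNSC cells with a Cdk6 read were green. Cdk4 supplied at least 97.9% of the summed mean TPM of the 2 kinases in each of the 4 groups, and no cell had 10 or more counts of Cdk6 without 10 or more of Cdk4.

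Among the inhibitors, Cdkn2c (p18) was the most widely read in IPC and Pdgfra-negative cells. It was present in 6 of 11 IPC cells at 192 to 475 TPM, in 1 of 7 Pdgfra-positive cells at 112 TPM, in 5 of 11 Pdgfra-negative cells at 93.8 to 236 TPM and in 10 of 60 qNSC cells at up to 221 TPM. The IPC, Pdgfra-positive and Pdgfra-negative cells with a read were thus well above 0 and the others of these groups had none. Each of the 6 IPC and 5 Pdgfra-negative cells with 10 or more counts of Cdkn2c also had 10 or more of Cdk4. Of the 8 qNSC cells with 10 or more counts of Cdkn2c, 3 had 10 or more of Cdk4.

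Cdkn1a (p21), the inhibitor that p53 induces, was read in 3 of 11 IPC cells at 1.04, 29.1 and 38.1 TPM, in 2 of 7 Pdgfra-positive cells at 18.8 and 27 TPM and in 0 of 11 Pdgfra-negative cells. In qNSC cells it was read in 8 of 60 at 8.65 TPM or less, and none of them had 10 counts. Cdkn1b (p27) was read in 5 of 11 IPC cells at 0.99 to 101 TPM, in 2 of 7 Pdgfra-positive cells at 4.55 and 6.93 TPM, in 1 of 11 Pdgfra-negative cells with 1 count, and in 15 of 60 qNSC cells at up to 90.6 TPM. The groups overlap for both genes, since most cells of every group had no read.

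Cdkn1c (p57) was close to absent from these cells. It was read in 0 of 11 IPC cells, in 2 of 7 Pdgfra-positive cells with 1 count each, in 1 of 11 Pdgfra-negative cells and in 4 of 60 qNSC cells with at most 4 counts. The exception was the Pdgfra-negative cell numbered 23 at 4.5 months, with 409 counts and 411 TPM. That cell also had the highest Ccnd3 of all 89 cells, at 425 TPM, and the lowest Cdk4 of the 4.5-month Pdgfra-negative cells, at 98.9 TPM.

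Rb1, the substrate of the D cyclin kinases, was read most often in qNSC cells: 2 of 11 IPC cells (22.2 and 135 TPM), 1 of 7 Pdgfra-positive cells (1 count), 3 of 11 Pdgfra-negative cells (47.3 to 136 TPM) and 22 of 60 qNSC cells (up to 237 TPM). Its mean abundance was 14.3, 0.06, 22.1 and 26.4 TPM in those groups. The IPC, Pdgfra-negative and qNSC ranges overlapped, and their mean log2(CPM + 1) of 1.33 ± 3.01, 2.08 ± 3.58 and 2.53 ± 3.61 differed by less than 1 SD.

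**Figure D3:**
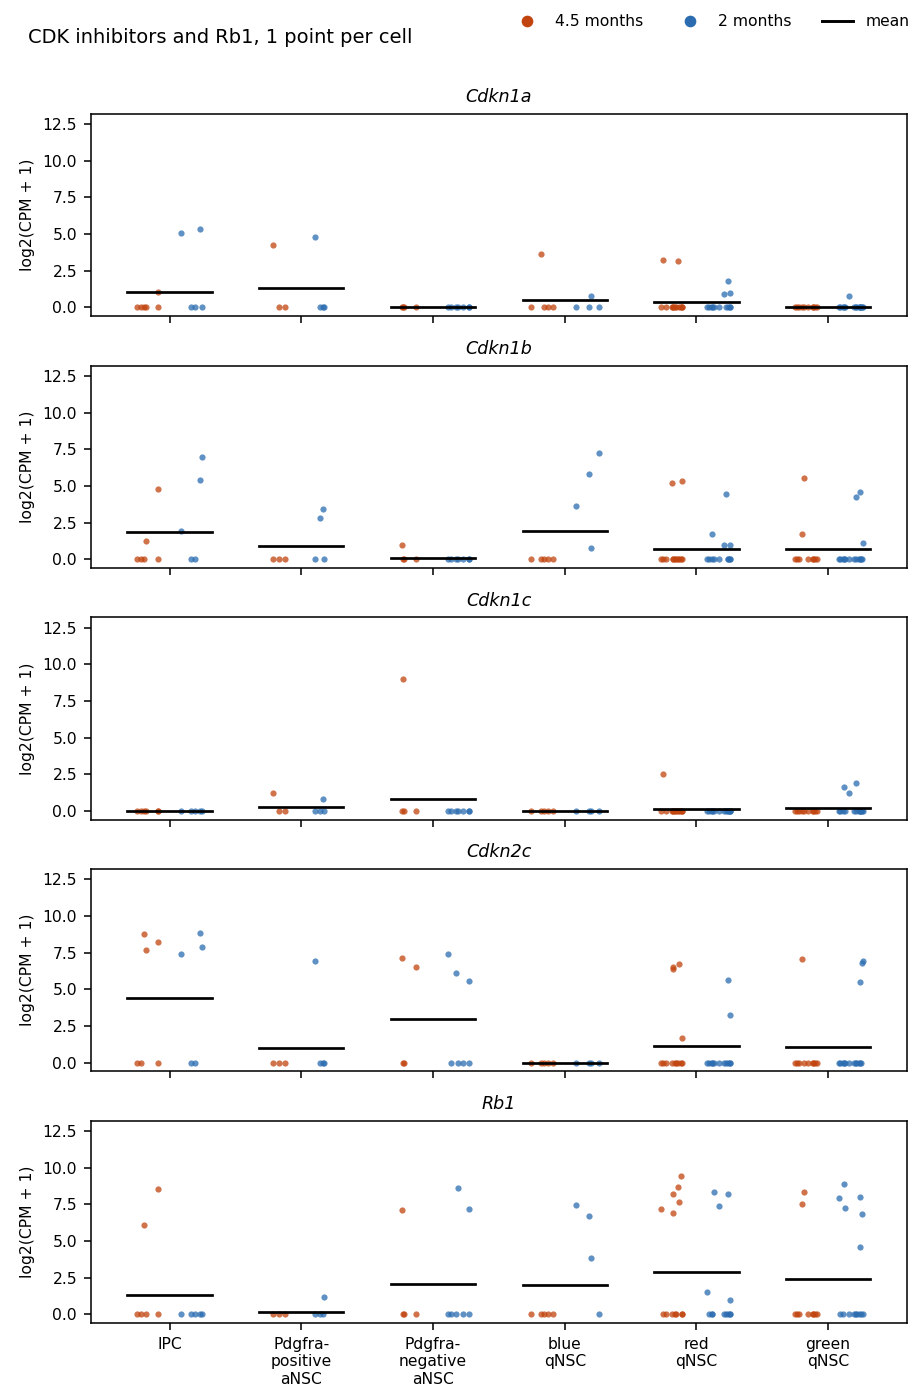
Level of the 4 CDK inhibitors and Rb1 in each cell, as log2(CPM + 1) on the vertical axis, by group of cells on the horizontal axis; points are cells coloured by age (4.5 and 2 months) and lines are group means. Most cells are at 0 for every gene, Cdkn2c is read in 6 of 11 IPC and 5 of 11 Pdgfra-negative cells, and a single Pdgfra-negative cell carries Cdkn1c.

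IPC cells were first set against Pdgfra-negative aNSC cells, the step from activated stem cell to progenitor. Cdk6, Cdkn1a and Cdkn1b were called higher in IPC cells, which is 3 of the 9 members tested, against 19.3% of all 8785 genes tested; 0 of 9 were called lower, against 18.1% of all genes. The median difference in mean log2(CPM + 1) was 1.46 over the members and 0.20 over all genes. Cdk6 averaged 3.91 ± 2.87 in IPC cells and 0.92 ± 2.06 in Pdgfra-negative cells (SD, n = 11 each), with summed CPM 9.50-fold higher (6.27-fold without the 4.5-month IPC cell numbered 14 and 55.0-fold without the 4.5-month Pdgfra-negative cell numbered 29). Cdkn1a was at least 20.4-fold higher in summed CPM against a floor of 3 counts over the Pdgfra-negative cells, but without either of 2 IPC cells (2 months, numbers 43 and 45) its difference was 0.64 or 0.62 and it was not called. Cdkn1b was 172-fold higher (30.5 to 6816) against the 1 count of the Pdgfra-negative cells, and 62.3-fold higher (10.8 to 2498) without the 2-month IPC cell numbered 5. Without the Pdgfra-negative cell that held this count (4.5 months, number 21) Cdkn1b was at least 49.7-fold higher, against the floor of 3 counts. Ccnd2 and Cdk4 were not called, since 10 or 11 of 11 cells of each group had a read and the limit on shares could not be met, while their ratios of summed CPM were 5.11 and 3.19. Rb1, with a ratio of 0.873, was called lower without the 4.5-month IPC cell numbered 14, which held 339 counts (ratio 0.154). Ccnd1 was read in 3 of 11 cells of each group, with a ratio of 12.3, Ccnd3 in 7 and 5 of 11 (ratio 0.765) and Cdkn2c in 6 and 5 of 11 (ratio 3.29), none with a call, and Cdkn1c in 0 and 1 of 11, too few to be tested.

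In the same comparison later cell cycle genes were called higher most often. All 12 of the 12 later cell cycle genes tested were called higher, among them the DNA clamp gene Pcna (8.26 ± 2.49 in IPC and 3.96 ± 4.24 in Pdgfra-negative cells) and the helicase gene Mcm3 (7.35 ± 3.70 and 1.41 ± 2.76). Of the other G1/S cyclins, CDKs and inhibitors 5 of 8 were called higher and 0 lower, led by Ccne1, the cyclin that follows the D cyclins (5.70 ± 3.71 in IPC and 0.68 ± 2.26 in Pdgfra-negative cells). Of the E2F and Rb family 6 of 12 were called higher and 0 lower, among them E2f1 (3.81 ± 3.79 and 0.71 ± 2.37) and the Rb relative Rbl1 (3.81 ± 3.71 and 0.56 ± 1.87). Of the genes of turnover and upstream control 3 of 10 were called higher and 1 lower, with Cks1b, a cofactor in p27 degradation, higher and Foxo1 lower. In the p53 list 1 of 7 was called each way, Trp53 higher and Zmat3 lower. Median differences were 4.09, 2.30, 1.56, 0.90 and 0.39 over these 5 lists in that order. Among all genes tested, 19.3% were called higher and 18.1% lower.

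Pdgfra-negative aNSC cells were next set against qNSC cells. Ccnd2, Cdk4 and Cdkn2c were called higher, 3 of the 7 members tested, against 16.9% of all 8030 genes; 0 of 7 were called lower, against 3.33%. The median difference was 0.65 over the members and 0.70 over all genes, so that the members did not stand out by their median. Ccnd2 averaged 7.11 ± 2.99 in Pdgfra-negative cells (n = 11) and 3.92 ± 3.61 in qNSC cells (n = 60) and was 4.39-fold higher in summed CPM, or 2.65-fold without the 4.5-month Pdgfra-negative cell numbered 21. Cdk4 averaged 7.25 ± 2.76 and 3.56 ± 3.64, with a ratio of 3.18, and Cdkn2c averaged 2.97 ± 3.45 and 0.94 ± 2.23, with a ratio of 4.22. All 3 calls held without any single Pdgfra-negative cell. Rb1, not called, was called lower without the 2-month Pdgfra-negative cell numbered 23, with a difference of -1.10 in place of -0.45. Ccnd1 had a ratio of 0.447 and Ccnd3 of 1.69, neither with a call. Cdkn1b, with 1 count in Pdgfra-negative cells, was 57.6-fold lower (10.3 to 2283), and its difference of -0.80 missed the limit. Cdk6 (ratio 2.69), Cdkn1a (0 of 11 and 8 of 60 cells) and Cdkn1c (1 of 11 and 4 of 60) were read in too few cells to be tested.

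In the wider lists the same Pdgfra-negative cells now stand on the other side of the comparison, so that the values are not independent of those above. Here 16.9% of all genes tested were called higher and 3.33% lower. Of the later cell cycle genes 4 of 6 were called higher and 0 lower, with Mcm7 at 4.23 ± 4.22 in Pdgfra-negative and 0.70 ± 2.30 in qNSC cells. In the p53 list 3 of 7 were called higher and 0 lower (Btg2, Trp53 and Zmat3). In turnover and upstream control 3 of 7 were called higher and 0 lower: the ubiquitin ligase scaffold Cul1 (8.26 ± 0.78 and 3.96 ± 3.79), Mycn (read in 4 of 11 and 4 of 60 cells) and Cks1b. In the E2F and Rb family 3 of 8 were called higher (Tfdp1, E2f6 and Lin37) and 1 lower (E2f5), and of the other G1/S genes 0 of 4 were called higher and 1 lower (Ccnh). Astrocyte markers reached 50% in 5 of 11 Pdgfra-negative and 55 of 60 qNSC cells; their part in these differences was not tested.

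The 2 aNSC groups differed in Ccnd1, Ccnd2 and Cdkn2c, while a call of Cdkn1a rested on 2 cells. Pdgfra-positive cells had Ccnd1 and Cdkn1a called higher, 2 of the 9 members tested, against 22.7% of all 9574 genes, and Ccnd2 and Cdkn2c called lower, 2 of 9, against 13%. The share called higher is at the level of all genes, and the median difference was 0.81 over the members and 0.47 over all genes. Ccnd1 averaged 4.00 ± 3.78 in Pdgfra-positive cells (n = 7) and 1.04 ± 2.04 in Pdgfra-negative cells (n = 11), with summed CPM 39.9-fold higher. The fold was 19.7 without the Pdgfra-positive cell numbered 36 at 4.5 months and 297 (101 to 1441), against 3 counts, without the Pdgfra-negative cell numbered 21 at 2 months. Ccnd2 averaged 1.67 ± 2.52 and 7.11 ± 2.99, 45.7-fold lower in Pdgfra-positive cells, which was 199-fold without the 2-month Pdgfra-positive cell numbered 44 and 27.5-fold without the 4.5-month Pdgfra-negative cell numbered 21. Cdkn2c averaged 0.99 ± 2.63 and 2.97 ± 3.45, with a ratio of 0.311, and these 3 calls held without any single cell. Cell 44 held all the Cdkn2c reads of the Pdgfra-positive cells, and without it Cdkn2c was at least 108-fold lower there.

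Cdkn1a, at least 14.8-fold higher in the Pdgfra-positive cells, rested on 2 cells (4.5 months, number 36, and 2 months, number 44), and without either it was read in too few cells to be tested, with a difference of 0.81 or 0.71 in place of 1.30. Cdk4 had a ratio of 0.964 in summed CPM and was not called. Ccnd3 had a ratio of 1.34 and was not called, but without the Pdgfra-negative cell numbered 23 at 4.5 months the ratio was 2.13 and Ccnd3 was called higher. Cdkn1b was 21.7-fold higher (3.45 to 901) against 1 count, and Cdkn1c, with 2 counts in Pdgfra-positive cells, 179-fold lower (49.3 to 1485), both with differences under 1 and no call. Cdk6 was at least 11.1-fold lower, and Rb1, with 1 count, 335-fold lower (59.7 to 13254), and neither was called. Cdk6 and Rb1 were called lower when any of several Pdgfra-negative cells without a read was left out, and Rb1 also without the 2-month Pdgfra-positive cell numbered 39, since their shares lay at the limit. Oligodendrocyte precursor markers separate the groups completely, so that these differences and those between cell types cannot be told apart.

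In the wider lists, Pdgfra-positive cells had 4 of 12 E2F and Rb genes, 3 of 8 other G1/S genes and 3 of 11 later cell cycle genes called higher, with 0 lower in each; the last were Mcm4, Pcna (6.56 ± 4.51 and 3.96 ± 4.24 in Pdgfra-negative cells) and the proliferation marker Mki67, read in 2 of 7 and 0 of 11 cells. The 2 Myc family genes went in opposite directions: Myc was called higher (read in 2 of 7 and 0 of 11 cells) and Mycn lower (0 of 7 and 4 of 11), in a list of turnover and upstream control with 2 of 9 higher and 1 lower. In the p53 list 2 of 9 were called higher, Phlda3 (read in 6 of 7 and 1 of 11 cells) and Gadd45a, and 1 lower, Btg2. Among all genes tested, 22.7% were called higher and 13% lower. The shares called higher in the later cell cycle and p53 lists lie near that of all genes.

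IPC cells set against Pdgfra-positive cells had Ccnd2, Cdk6 and Cdkn2c called higher, 3 of 9 members, against 15.2% of all 9520 genes, and Ccnd1 called lower, 1 of 9, against 23.5%. The median difference was 0.96 over the members and -0.30 over all genes. Ccnd2 was 233-fold higher in summed CPM (2549.5 against 10.9 CPM), Cdk6 at least 105-fold higher (at least 69.6-fold without the 4.5-month IPC cell numbered 14) and Cdkn2c 10.6-fold higher. Without the 2-month Pdgfra-positive cell numbered 44 the folds were 1017 for Ccnd2 and at least 357 for Cdkn2c. Ccnd1 had a ratio of 0.310, which was 0.628 with a difference of -1.27, and no call, without the Pdgfra-positive cell numbered 36 at 4.5 months, whose 447 counts are most of its group's 804. Without the 2-month IPC cell numbered 43 the ratio was 0.0722. Cdk4 had a ratio of 3.31 with a read in every cell of both groups, and so no call. Ccnd3 was called lower without the IPC cell numbered 13 (4.5 months) or 43 (2 months), with ratios of 0.469 and 0.461 in place of 0.570. Cdkn1b, with a ratio of 7.92 and a difference of 0.96 just under the limit, was called higher without any of several cells. Cdkn1a had a ratio of 1.37 without a call, Cdkn1c was read in 0 of 11 and 2 of 7 cells, and Rb1, read in 2 of 11 and 1 of 7, was not tested.

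In this comparison, 8 of 12 later cell cycle genes and 6 of 11 genes of turnover and upstream control were called higher in IPC cells and 0 lower, the second group with Mycn (read in 5 of 11 and 0 of 7 cells) and Skp2, a ubiquitin ligase subunit that targets p27 (5 of 11 and 1 of 7). Of the E2F and Rb family 4 of 13 were called higher and 2 lower, and of the other G1/S genes 1 of 8, Ccne1, was called higher and 0 lower. In the p53 list 2 of 9 were called each way, with Phlda3 read in 0 of 11 IPC and 6 of 7 Pdgfra-positive cells. Among all genes tested, 15.2% were called higher and 23.5% lower.

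Single cells showed which members were present together, here with 10 or more counts each. The median number of the 10 genes at that level was 5 in IPC, 3 in Pdgfra-positive, 3 in Pdgfra-negative and 2 in qNSC cells. A D cyclin and Cdk4 were present together in 10 of 11 IPC, 7 of 7 Pdgfra-positive, 9 of 11 Pdgfra-negative and 23 of 60 qNSC cells. The pair of Ccnd2 and Cdk4 was in 10 of 11, 2 of 7, 9 of 11 and 20 of 60 cells of the same groups, and that of Cdk4 and Cdk6 in 7 of 11, 0 of 7, 1 of 11 and 1 of 60. A D cyclin with neither kinase was the state of 18 qNSC cells and of 1 cell of the other groups together. None of the 10 genes reached 10 counts in 8 qNSC cells, 3 of them blue, 2 red and 3 green, which no cell of the other groups showed.

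Inhibitors were read beside cyclins and kinases in part of the cells. At least 1 of the 4 inhibitors had 10 or more counts in 6 of 11 IPC, 3 of 7 Pdgfra-positive, 6 of 11 Pdgfra-negative and 15 of 60 qNSC cells, and 2 or more in 4, 1, 0 and 1. Of the cells with an inhibitor, 5 of 6 IPC, 3 of 3 Pdgfra-positive, 5 of 6 Pdgfra-negative and 6 of 15 qNSC cells also had a D cyclin and a kinase. A D cyclin and a kinase with no inhibitor were seen in 5 of 11, 4 of 7, 4 of 11 and 17 of 60 cells. After thinning to 444835 counts, which left out 9 shallower cells, a D cyclin and Cdk4 were together in 9 of 10 IPC, 6 of 7 Pdgfra-positive, 7 of 8 Pdgfra-negative and 20 of 55 qNSC cells, and 2 or more inhibitors in 4, 1, 0 and 0.

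**Figure D4:**
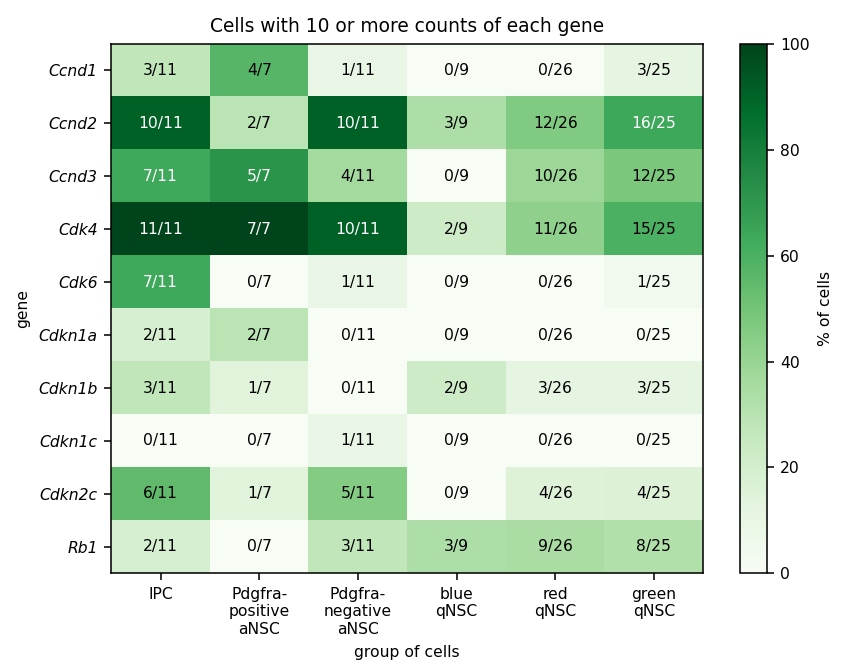
Cells with 10 or more counts of each gene (vertical axis) in each group of cells (horizontal axis); colour is the % of cells and the text the number of cells of the group. Cdk4 is at 11 of 11 IPC, 7 of 7 Pdgfra-positive and 10 of 11 Pdgfra-negative cells, against 2 of 9 blue, 11 of 26 red and 15 of 25 green qNSC cells.

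Among the qNSC colours the blue cells had the lowest D cyclin level. Their 3 D cyclins summed to a mean of 11.5 TPM, against 69.3 TPM in red and 134 TPM in green cells. Ccnd2 and Ccnd3 were called lower in blue cells set against the other 51, 2 of 6 members tested, against 15.7% of all 7702 genes, and Cdkn1b was called higher, 1 of 6, against 4.19%. Under median-of-ratios scaling the share of higher calls among all genes called changed to 32.4%, against 21.1% here, and the median of all genes to -0.17 in place of -0.51; the same 3 members were called. The median difference here was -1.27 over the members.

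Ccnd3 was read in 2 of 9 blue cells with 3 counts in all and in 26 of 51 others, 183-fold lower in summed CPM (62.6 to 888). Ccnd2 was read in 3 of 9 blue cells, at 54.4, 25.8 and 19.9 TPM, and in 33 of 51 others, with a ratio of 0.331; both calls held without any single blue cell. Without the 2-month blue cell numbered 10 the ratio of Ccnd2 was 0.192 and Ccnd3, with 1 count left in blue cells, was 432-fold lower (77.5 to 17077). Cdk4 had a ratio of 0.167 and was read in 5 of 9 and 31 of 51 cells, too close for a call, but with detection at 10 counts it was called lower. Cdkn1b was read in 4 of 9 blue cells, all 4 of the 2-month ones and none of the 5 at 4.5 months, with a ratio of 6.03. Without the 2-month blue cell numbered 27 or 32 its difference was 0.58 or 0.76, in place of 1.24, and it was not called. Cdkn2c was read in 0 of 9 blue and 10 of 51 other cells, at least 30.4-fold lower, just under the 20% needed for testing, and was called lower with no filter. Rb1 was read in 3 of 9 and 19 of 51 cells (ratio 0.431) and Cdkn1a in 2 of 9 and 6 of 51 (ratio 2.73), without a call. Ccnd1 (1 of 9 and 5 of 51), Cdk6 (0 of 9 and 3 of 51) and Cdkn1c (0 of 9 and 4 of 51) were not tested. The blue cells had a median of 793971 counts and 3404 genes, against 1004305 counts and 3724 genes in the others, and the part of depth was not tested.

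In the wider lists of this comparison 1 of 7 E2F and Rb genes was called higher, the Rb relative Rbl2 (3.68 ± 3.79 in blue and 1.60 ± 2.90 in other cells), and 1 lower, Lin52. Mnat1, Foxo1 and Sesn1 were the calls in the other lists: 1 of 4 other G1/S genes lower, 1 of 5 genes of turnover and upstream control lower and 1 of 6 p53 genes higher. The 1 later cell cycle gene tested was not called. Among all genes tested, 4.19% were called higher and 15.7% lower.

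Red and green cells differed in Ccnd2, mostly in cells of 4.5 months. It was called lower in red cells, 1 of 6 members tested, against 7.74% of all 7605 genes, and 0 of 6 were called higher, against 4.43%, with a median difference of -0.27 over the members and -0.09 over all genes. Its abundance in red cells had a median of 4.28 TPM and a highest value of 104 TPM, and in green cells a median of 36.6 TPM and a highest value of 175 TPM, and the lowest value of both was 0. The mean log2(CPM + 1) was 3.28 ± 3.29 in red cells (n = 26) and 5.18 ± 3.70 in green cells (n = 25), a difference of -1.89 that is smaller than either SD, with a ratio of 0.346. Cdk4 had a ratio of 0.481 and was read in 15 of 26 red and 16 of 25 green cells, without a call, and was called lower with detection at 10 counts. Ccnd3 (ratio 0.682), Cdkn1b (0.916), Cdkn2c (0.656) and Rb1 (1.33) were not called. The other 4 were read in too few cells to be tested: Ccnd1 in 2 of 26 red and 3 of 25 green cells, Cdk6 in 0 and 3, Cdkn1a in 5 and 1, and Cdkn1c in 1 and 3. Of the 5 wider lists, with 8, 4, 5, 7 and 3 genes tested, none had a called gene.

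Between the ages, the widest difference in mean log2(CPM + 1) in qNSC cells among the 10 genes was that of Cdk4, at -2.25, whereas in the share of cells with a read Ccnd2 and Cdkn1b differed more. At 4.5 months 9 of 28 qNSC cells had 10 or more counts of Cdk4, against 19 of 32 at 2 months. Its median was 1.14 TPM at 4.5 months and 127 TPM at 2 months, with ranges of 0 to 492 TPM and 0 to 814 TPM that overlap. The mean log2(CPM + 1) was 2.36 ± 3.04 at 4.5 months (n = 28) and 4.61 ± 3.85 at 2 months (n = 32), with a ratio of summed CPM of 0.340. Since 15 of 28 and 21 of 32 cells had at least 1 read, the limit on shares was missed and Cdk4 was not called.

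Over all qNSC cells 0 of 5 members tested were called higher at 4.5 months, against 2.51% of all 7243 genes, and 0 of 5 lower, against 5.63%, with a median difference of -0.47 over the members and -0.22 over all genes. Cdk4 was called lower when the cells were thinned to 1 depth, when detection needed 10 counts, and when cells with markers of other types were left out. Such cells were 7 of 28 at 4.5 months and 1 of 32 at 2 months. After thinning, 10 or more counts of Cdk4 were kept by 7 of the 25 cells left at 4.5 months and by 18 of the 30 left at 2 months. Ccnd2 was read in 13 of 28 and 23 of 32 cells, with a ratio of 1.05, and Cdkn1b in 4 of 28 and 11 of 32, with a ratio of 0.644. Ccnd3 had a ratio of 1.04 and Rb1 of 1.26, without a call. Ccnd1 (2 of 28 and 4 of 32 cells), Cdk6 (1 and 2), Cdkn1a (3 and 5), Cdkn1c (1 and 3) and Cdkn2c (5 and 5) were not tested. In the wider lists Bax (2.42 ± 3.10 at 4.5 months and 4.51 ± 3.18 at 2 months) and Mdm2 were called lower, 2 of 6 p53 genes, and Cul1 higher, 1 of 5 genes of turnover and upstream control, with no call among 6 E2F and Rb, 4 other G1/S and 2 later cell cycle genes.

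**Figure D5:**
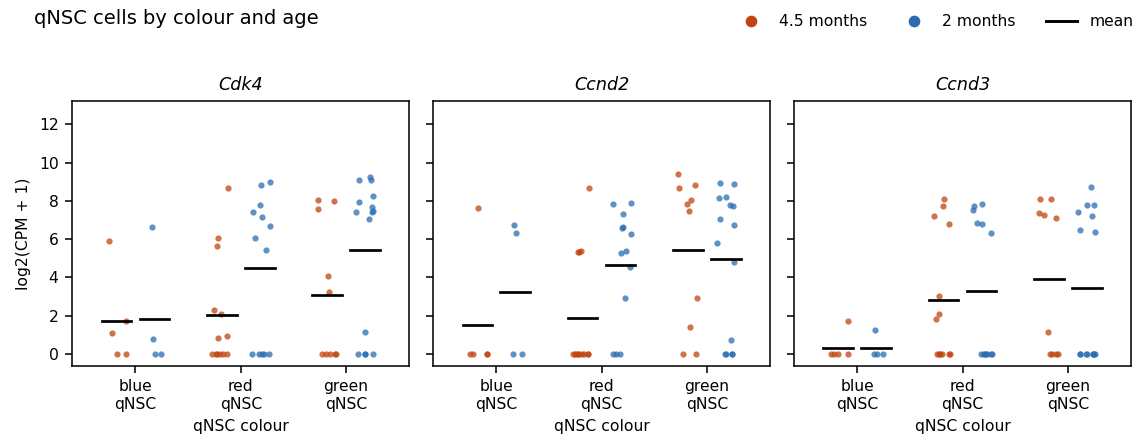
Level of Cdk4, Ccnd2 and Ccnd3 in qNSC cells, as log2(CPM + 1) on the vertical axis, by colour on the horizontal axis with 4.5 months left of 2 months in each; points are cells and lines are means. Cdk4 reaches 10 counts in 3 of 13 against 8 of 13 red cells and in 5 of 10 against 10 of 15 green cells at 4.5 and 2 months.

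Within the colours Cdk4 was the member called in green cells. It was lower at 4.5 months, 1 of 7 members tested, against 11.6% of all 8777 genes, and 0 of 7 were called higher, against 8.8%. The median difference was -0.32 over the members and -0.01 over all genes. In green cells it averaged 3.09 ± 3.60 at 4.5 months (n = 10) and 5.46 ± 3.89 at 2 months (n = 15), with a median of 5.73 and 232 TPM and a ratio of 0.376. The call held without any single 4.5-month or 2-month green cell and under all 8 other ways of processing, while 1 of 7 members is near the share among all genes. Tspan31 shares exons with Cdk4, and its part was not tested. Rb1 and Cdkn2c were called lower without the 4.5-month green cells numbered 39 and 41, in that order, with ratios of 0.275 and 0.0203 in place of 0.796 and 0.732. Ccnd2 (ratio 1.70), Ccnd3 (1.29) and Cdkn1b (1.74) were not called, nor was Cdkn1c, read in 0 of 10 and 3 of 15 cells. Ccnd1 (1 of 10 and 2 of 15), Cdk6 (1 and 2) and Cdkn1a (0 and 1) were not tested.

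In red cells Ccnd2 was called lower at 4.5 months, 1 of 7 members tested, against 12.3% of all 7787 genes, and 0 of 7 were called higher, against 9.22%. The median difference was 0.19 over the members and -0.14 over all genes. At 4.5 months 4 of 13 red cells had a read of Ccnd2 and the mean was 1.90 ± 3.08, against 10 of 13 cells and 4.67 ± 2.98 at 2 months. Its ratio of 0.498 lies at the limit. It passed 0.5 without any 1 of 12 of the 13 red 4.5-month cells or of the 2-month red cells numbered 31, 33, 36 and 40, with 0.650 as the highest ratio, so that no call was made, and was 0.133 without the 4.5-month cell numbered 9. Cdk4 had 10 or more counts in 3 of 13 and 8 of 13 cells, with a ratio of 0.328, and was read in 7 and 8 of them. Cdkn2c, read in 4 of 13 and 2 of 13 cells with a ratio of 8.21, was called higher without any of several cells with no read at 4.5 months, or without either 2-month cell with a read. Ccnd3 (ratio 0.866), Cdkn1a (3.98, from 12 and 3 counts, interval 1.07 to 22), Cdkn1b (2.49) and Rb1 (2.09) were not called. Ccnd1 (1 of 13 cells at each age) and Cdkn1c (1 and 0 of 13) were not tested, and Cdk6 had no read.

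In the wider lists, red cells had Mdm2 (0.67 ± 1.96 at 4.5 months and 3.24 ± 3.84 at 2 months), Trp53, E2f4 and Tfdp2 called lower at 4.5 months and Phlda3 and Ccna2 higher. These are 2 of 8 p53 genes lower and 1 higher, 2 of 6 E2F and Rb genes lower and 1 of 3 later cell cycle genes higher, with none of 4 other G1/S and 5 turnover genes. Green cells had Cul1 (7.23 ± 2.79 and 3.26 ± 4.06), Foxo1 and the INK4 inhibitor Cdkn2d (4.33 ± 3.77 and 1.09 ± 2.71) called higher and Tfdp1, Huwe1, Fbxo31, Bax, Phlda3 and Mcm6 lower. These are 2 of 7 turnover genes each way, 1 of 4 other G1/S genes higher, 1 of 9 E2F and Rb, 2 of 7 p53 and 1 of 4 later cell cycle genes lower. Among all genes tested, 9.22% were called higher and 12.3% lower in red cells, and 8.8% and 11.6% in green cells. In blue cells Cdk4 reached 10 counts in 1 of the 5 cells of 4.5 months and 1 of the 4 cells of 2 months. Rb1 was read in 0 of those 5 and 3 of those 4.

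Pdgfra-negative aNSC cells had Cdkn1c called higher at 4.5 months, 1 of 9 members tested, against 19.5% of all 10126 genes, and Ccnd1 called lower, 1 of 9, against 19.7%. Both shares are below that of all genes, and the median difference was 0.68 over the members and 0.15 over all genes. Cdkn1c was the single cell numbered 23 at 4.5 months, without which it was not read at either age, and Ccnd1, with no read at 4.5 months and at least 5.49-fold lower there, was not called without the 2-month cell numbered 21. Without the 2-month cell numbered 15, which had neither gene, Ccnd1 was at least 8.98-fold lower and Cdkn1c at least 116-fold higher, in place of at least 190.5-fold. The 4 cells of 4.5 months had 26.9, 129, 256 and 491 TPM of Ccnd2, against 0 to 151 TPM with a median of 22.2 in the 7 cells of 2 months, and the groups overlap. Ccnd2 had a ratio of summed CPM of 4.30 and Cdk4 of 2.00, neither with a call because nearly all cells had a read. Ccnd2 was called higher without any 1 of 6 of the 2-month cells, with ratios of 2.77 to 6.49, and Cdk4 without 3 of them (numbers 4, 21 and 48), with ratios of 2.06 to 2.42. Cdk6 was called higher without any of 4 cells, Cdkn2c higher without the 2-month cell numbered 48, Ccnd3 lower without the 4.5-month cell numbered 23 and Rb1 lower without the 4.5-month cell numbered 21. The ratios with all cells were 7.45 for Cdk6, 1.45 for Cdkn2c, 1.06 for Ccnd3 and 0.923 for Rb1. Cdkn1b had 1 count at 4.5 months and none at 2 months, and Cdkn1a had none at either age. The median total was 838586 counts at 4.5 months and 472002 at 2 months, and the part of depth was not tested.

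IPC cells had Rb1 called higher at 4.5 months, 1 of 9 members tested, against 7.95% of all 10145 genes, and Ccnd1, Cdkn1a and Cdkn1b called lower, 3 of 9, against 22.8%. The median difference was -0.72 over the members and -0.43 over all genes. Rb1 had 135 and 22.2 TPM in 2 of 6 cells at 4.5 months and was listed at 0 in the 5 cells of 2 months, at least 123-fold higher in summed CPM, or at least 23.8-fold without the 4.5-month cell numbered 14. Each of the 3 lower calls rested on 1 or 2 cells of 2 months: Ccnd1 on the cells numbered 25 and 43 (ratio 0.155), Cdkn1a on those numbered 43 and 45 (0.0125, with an interval up to 0.0719 for the 1 count at 4.5 months) and Cdkn1b on that numbered 5 (0.125). Without cell 43 the ratio of Ccnd1 was 1.63, and without cell 5 that of Cdkn1b was 0.416. Without the 4.5-month cell numbered 6 Ccnd1 was at least 93.0-fold lower at 4.5 months. Without that numbered 14 Cdkn1a was at least 22.1-fold lower, and Cdkn1b, with 1 count left, 166-fold lower (29.5 to 6605). Cdk4 ran from 980 to 2401 TPM at 4.5 months and from 1066 to 1617 TPM at 2 months. Ccnd2 ran from 373 to 1146 TPM with a median of 905 at 4.5 months, against 0, 268, 525, 696 and 724 TPM at 2 months. It was called higher without the 4.5-month cell numbered 17 or the 2-month cell numbered 11 or 43, with ratios of 2.10, 2.66 and 2.11 in place of 1.83. Ccnd3 was read in 3 of 6 and 4 of 5 cells with a ratio of 0.708, and was called lower without the 4.5-month cell numbered 13 (ratio 0.362, difference -2.96). Cdk6 (ratio 2.20) and Cdkn2c (0.870) were not called, and Cdkn1c had no read. Median genes per cell were 3908.5 at 4.5 months and 5184 at 2 months, and their part was not tested.

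In these 2 age comparisons the wider lists had calls both ways. Among all genes tested, 19.5% were called higher and 19.7% lower in Pdgfra-negative cells, and 7.95% and 22.8% in IPC cells. Pdgfra-negative cells had 1 higher and 2 lower of 8 E2F and Rb genes, 2 and 3 of 5 other G1/S genes, 2 and 1 of 9 turnover genes, 3 and 2 of 9 p53 genes and 1 and 2 of 8 later cell cycle genes. Tfdp1, the E2F partner, was among the higher ones (7.52 ± 0.52 at 4.5 months and 2.59 ± 3.75 at 2 months) and Lin37, a subunit of the complex that represses cell cycle genes in quiescence, among the lower (0 of 4 and 5 of 7 cells). IPC cells had 2 higher and 1 lower of 15 E2F and Rb genes, 0 and 1 of 8 other G1/S genes, 0 and 1 of 11 turnover genes, 0 and 2 of 9 p53 genes and none of 13 later cell cycle genes. Mdm2, the ubiquitin ligase of p53, was lower there (1.08 ± 2.65 at 4.5 months and 6.06 ± 3.49 at 2 months), as was Cul1 (4.07 ± 3.89 and 8.78 ± 0.89). Pdgfra-positive cells were too few for an age comparison. Their Cdk4 was 191, 289 and 416 TPM at 4.5 months and 443, 561, 860 and 907 TPM at 2 months. Mean Cdk4 was also lower at 4.5 months in qNSC cells (58.7 against 196 TPM). It was higher at 4.5 months in Pdgfra-negative cells (681 against 302 TPM) and IPC cells (1678 against 1309 TPM).

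The genes most like the members over the 89 cells were found by Spearman's rho of log2(CPM + 1) among 7203 genes read in at least 20% of cells. The cells share classes, ages and depth, so the coefficients are descriptions. Cdk4 was closest to Stmn1 (0.66), Rpl37a (0.64) and Ptma (0.64), and Ccnd2 to Mn1 (0.62), Stmn1 (0.61) and Cdk4 itself (0.57). Within the 60 qNSC cells Ccnd2 and Cdk4 had a rho of 0.42. Cdk4 had a rho of 0.39 with genes per cell over all cells and 0.13 within qNSC cells. The closest genes were Rprd2 (0.44), Exoc3 (0.44) and N6amt2 (0.42) for Ccnd3, Pdgfrl (0.50), Gatc (0.48) and Xrn2 (0.46) for Cdkn1b, Ccnl2 (0.49), Rnf40 (0.47) and Stag1 (0.47) for Cdkn2c, and Sema4a (0.49), Efemp1 (0.49) and Grina (0.44) for Rb1. Ccnd1, Cdk6, Cdkn1a and Cdkn1c were read in 19.1%, 14.6%, 14.6% and 7.87% of cells and were not compared.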

How the data were processed

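Single cells of mouse dentate gyrus were sequenced, 1 cell a sample. The authors deposited expected counts per gene, made with STAR and RSEM on mm10 per the submitters' processing notes, which give no versions; 4.44% of the values above 0 are not whole (tolerance 1e-06). The authors also deposited TPM, an abundance scaled for gene length and library, and a table of class and colour for each cell. Filters and annotation are not given in the sources used here. From the counts, CPM and log2(CPM + 1) with a pseudocount of 1 were computed over all 24411 genes with Python 3.11.15, numpy 2.4.6, pandas 2.3.3 and scipy 1.17.1; counts were rounded for intervals. Activated cells were split at 10 counts of Pdgfra. Calls needed a read in 20% of cells of either group, a difference of 1, a ratio of 2 and 15 percentage points, as fixed sizes with no test, because no animals are named and cells are not replicates. Such sizes take no account of the spread between cells. Folds against a group at 0 were computed against 3 counts summed across its cells.

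The 10 genes and the 5 wider lists (63 genes) were chosen with earlier results of these data known. All 10 are described in every comparison; of a wider list at most 5 called genes a comparison could be named, largest difference first. The rule for calls was also run on simulated counts, with changes made in genes read in a middle share of cells. Their shares were changed along with their levels, so the run says little about members read in few cells. Alternatives were median-of-ratios scaling, TPM, a pseudocount of 10, thinning to 444835 counts (80 cells kept), leaving out 10 cells with markers of other types, detection at 10 counts, no filter, a filter at 50% of cells, and leaving out each cell of groups under 20; leaving out cells from the D cyclin make-up was added after seeing the data. No doublet caller was run. Total counts per cell had a median of 912394, and intervals cover counting error only.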

Additional observations from a re-analysis of the deposited data

Results flagged for a closer look

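In groups of 4 to 10 cells, 1 cell stood apart from the others of its group, by the size of its gap to the nearest other cell, in 21 of 56 combinations of gene and group. Chance gives this in about 1 of 20 groups when values follow a normal distribution, and most of these groups hold mainly zeros, so that a single cell with a read stands apart. All values are log2(CPM + 1).

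In IPC cells of 2 months the cell numbered 5 was lowest for Ccnd2 and Ccnd3, at 0 for both, and the cell numbered 43 highest for Cdk4, at 10.27. In IPC cells of 4.5 months the cell numbered 6 was highest for Ccnd1, at 6.17, and the cell numbered 14 for Cdkn1a, at 1.08, and Cdkn1b, at 4.79.

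In Pdgfra-negative aNSC cells of 4.5 months the cell numbered 23 was highest for Ccnd3, at 9.11, and Cdkn1c, at 9.0. The cell numbered 21 was highest for Cdkn1b, at 0.94 from 1 count, and Rb1, at 7.13, and the cell numbered 29 for Cdk6, at 5.52. At 2 months the cell numbered 23 was lowest for Cdk4, at 0, and the cell numbered 21 highest for Cdk6, at 4.63. In Pdgfra-positive aNSC cells those of 2 months numbered 44 and 39 were highest for Cdkn2c, at 6.95, and for Rb1, at 1.18 from 1 count.

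Among blue qNSC cells the 2-month cell numbered 27 was highest for Ccnd1, at 1.18 from 1 count, and the 4.5-month cell numbered 10 for Cdkn1a, at 3.62 from 5 counts. Among green qNSC cells of 4.5 months the cell numbered 7 was highest for Ccnd1, at 7.24, the cell numbered 39 for Cdkn1b, at 5.52, and the cell numbered 41 for Cdk6, at 1.09 from 1 count, and Cdkn2c, at 7.09.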

How the results depend on the processing

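No called member changed direction under any alternative. In the counts of members called, 45 of 212 values differed from the main count by more than 1.5 times. With a pseudocount of 10 and with the 50% filter, 1 member was called higher in IPC against Pdgfra-negative cells (Cdk6, in place of 3), 1 higher and 1 lower in Pdgfra-positive against Pdgfra-negative cells (Ccnd1 and Ccnd2, in place of 2 each) and 0 higher in blue cells, in place of 1. Between ages the pseudocount of 10 left 0 lower in Pdgfra-negative and 1 lower (Ccnd1) in IPC cells, and the 50% filter left 0 either way in Pdgfra-negative cells and 0 higher and 1 lower (Cdkn1b) in IPC cells. Detection at 10 counts gave 2 lower in red against green cells (Cdk4 added), 0 higher in blue cells (with Cdk4 added to the lower ones), 1 lower (Cdk4) with age in qNSC cells, 1 higher (Rb1) and 2 lower (Ccnd2 and Cdk4) in red cells and 0 lower in Pdgfra-negative cells. Thinning gave 1 lower with age in qNSC cells (Cdk4), 2 higher in red cells (Cdkn2c and Rb1, with Cdk4 lower in place of Ccnd2) and 2 higher and 0 lower in Pdgfra-negative cells. Without cells with markers of other types, 1 was lower with age in qNSC cells (Cdk4), 0 lower in red cells and 2 higher in Pdgfra-negative cells. Median-of-ratios scaling gave 0 lower with age in red cells, and TPM gave 1 higher (Cdkn2c) and 0 lower. The cause was not tested.

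Leaving out 1 cell at a time gave 0 to 1 lower in IPC against Pdgfra-negative and in Pdgfra-negative against qNSC cells, 1 to 3 higher and 2 to 4 lower in Pdgfra-positive against Pdgfra-negative cells, 0 to 2 lower in IPC against Pdgfra-positive cells and 0 to 1 higher in blue cells. With age it gave 0 to 1 higher and 0 to 1 lower in red, 1 to 2 lower in green, 1 to 4 higher and 0 to 2 lower in Pdgfra-negative and 1 to 2 higher and 1 to 4 lower in IPC cells. An inhibitor was present in 45% of qNSC cells with 1 or more counts, against 25% with 10 or more. No paired analysis was possible because no label pairs cells across groups and no animal is named.

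Over all genes, counts of calls were 0.214 to 0.703 of the main count with a pseudocount of 10, 0.312 to 0.720 with the 50% filter, 0.889 to 1.75 after thinning and 0.881 to 1.63 under median-of-ratios scaling. Depth limits the members with few reads most: in groups of 4 to 11 cells a gene at 0 may be present in some cells, and 1 cell decides many calls. Classes may rest on these genes, animals are unknown, and age and animal cannot be told apart.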
